A study of Mus musculus with 11 samples.

Results

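Translation initiation factors and the proteins that bind eIF4E were followed in gastrocnemius muscle after deletion of Raptor, or of Raptor and mTOR together. The members were the protein-coding mouse genes whose symbol begins with Eif followed by a digit from 1 to 6. There were 55 of them among 55487 genes in the deposited count tables, and 11 further Eif entries annotated as pseudogenes or as other non-coding types were left out. Of the 55 members, 51 had enough counts to be tested among 10505 tested genes. Eif2ak2, Eif2ak3, Eif4e1b and Eif5a2 did not, and stood at no more than 3.16 CPM (counts divided by the TMM-scaled library total and given per 1e6 counts) in any library.

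The 4 double-knockout mice carried floxed Raptor and floxed mTOR alleles with a Cre recombinase fused to a mutated oestrogen receptor domain. The 3 Raptor-knockout mice carried floxed Raptor alleles with the same Cre, and the reference was 4 wild-type mice. The Cre was driven by the human skeletal actin promoter, so that recombination was directed to myofibres and not to the other cells of the muscle. All 3 groups were labelled as treated with tamoxifen, which was begun at 3 months of age and given in chow for 7 weeks, and muscle was taken 7 months after it was begun. Whether the wild-type mice carried Cre or floxed alleles was not given in the sources used here. Each mouse gave 1 QuantSeq library of the 3' tag kind, so a gene is counted mostly through reads next to its poly(A) tail. The data therefore describe transcript levels of the factors, not their protein, their phosphorylation or the rate of translation.

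Initiation begins when eIF2, carrying GTP and the initiator tRNA, joins the small ribosomal subunit together with eIF1, eIF1A, eIF3 and eIF5. The eIF4F complex, made of the cap-binding protein eIF4E, the scaffold eIF4G and the helicase eIF4A, brings that subunit to the capped end of an mRNA. The 4E-binding proteins occupy the surface of eIF4E that eIF4G needs, and phosphorylation by mTOR complex 1, of which Raptor is the substrate-binding subunit, releases them. In skeletal muscle this is a main route from insulin, amino acids and mechanical load to protein synthesis.

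Library totals ran from 2791339 to 6328533 counts. Rptor, the gene of Raptor, stood at 4.07 to 5.37 CPM in double-knockout, 3.85 to 4.99 CPM in Raptor-knockout and 8.57 to 10.6 CPM in wild-type muscle. Mtor stood at 31.8 to 39.5 CPM in double-knockout, 18.2 to 22.6 CPM in Raptor-knockout and 15.2 to 28.2 CPM in wild-type muscle, and counts of 3' tags cannot tell whether floxed exons of these genes were deleted. Xist was at 95.6 to 208 CPM in double-knockout replicates 1 to 3 and 117 CPM in wild-type replicate 3, and at 0.291 CPM or lower elsewhere, so all 3 Raptor-knockout libraries were low in it. Double-knockout replicates 3 and 4 were deposited under another run than the other 9 libraries. The run with these 9 is called the larger run here, by the number of libraries used. Summed CPM of satellite cell and developing fibre markers was 260 to 312 in double-knockout, 162 to 187 in Raptor-knockout and 18.9 to 26.2 in wild-type muscle. Pax7, a satellite cell gene of that list, had too few counts to be tested. It averaged 1.37 CPM in double-knockout, 0.825 CPM in Raptor-knockout and 1.31 CPM in wild-type muscle, so the difference in the sum did not come from it. Fibroblast markers summed to 1011 to 1185 CPM in double-knockout, 907 to 1020 CPM in Raptor-knockout and 560 to 877 CPM in wild-type muscle. Macrophage and leukocyte markers summed to 129 to 166 CPM in double-knockout, 91.5 to 192 CPM in Raptor-knockout and 65.4 to 120 CPM in wild-type muscle. In both comparisons with wild type, 4 of 4 tested satellite cell and developing fibre markers rose, among them Myod1. So did 4 of 6 fibroblast and 4 of 7 leukocyte markers, and of 8 myofibre markers 2 rose and 3 fell. No listed marker was at 0 in all libraries. In whole muscle, fewer cells of a type and less RNA per cell cannot be told apart, and the part of these cell types in the members' values was not tested.

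Relative to wild type, 12 members rose and 5 fell in double-knockout muscle, which is 33.3% of those tested, where 26.7% of all tested genes were called (13.0% higher and 13.7% lower). A gene was called at an adjusted p under 0.05 in edgeR's quasi-likelihood test. In Raptor-knockout muscle 7 members rose and 5 fell, 23.5% of those tested, against 18.2% of all tested genes (8.73% higher and 9.43% lower). Beside these backgrounds the number of members called is not a result about the members. The median log2 fold change of the 51 members was 0.12 in double-knockout and 0.05 in Raptor-knockout muscle, beside 0.02 and 0.00 over all tested genes. Knockout and wild-type libraries did not overlap for 19 of the 51 members in the double knockout, beside 26.8% of all tested genes, and for 21 in the Raptor knockout, beside 27.3%. Both comparisons use the same 4 wild-type libraries. Scaling by library totals instead of TMM moved the median of all genes to 0.25 and 0.20, and the members' calls to 18 higher and 3 lower in double-knockout and 16 higher and 2 lower in Raptor-knockout muscle. Presence of Xist as a covariate left 7 members higher and 3 lower in double-knockout muscle, and 9 higher and 6 lower in Raptor-knockout muscle. Among the libraries without Xist, of which 1 was a double knockout, no member was called in double-knockout muscle, and 2 were higher and 2 lower in Raptor-knockout muscle. Within the larger run, which held double-knockout replicates 1 and 2, 8 members were higher and 3 lower in double-knockout muscle.

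**Figure D1:**
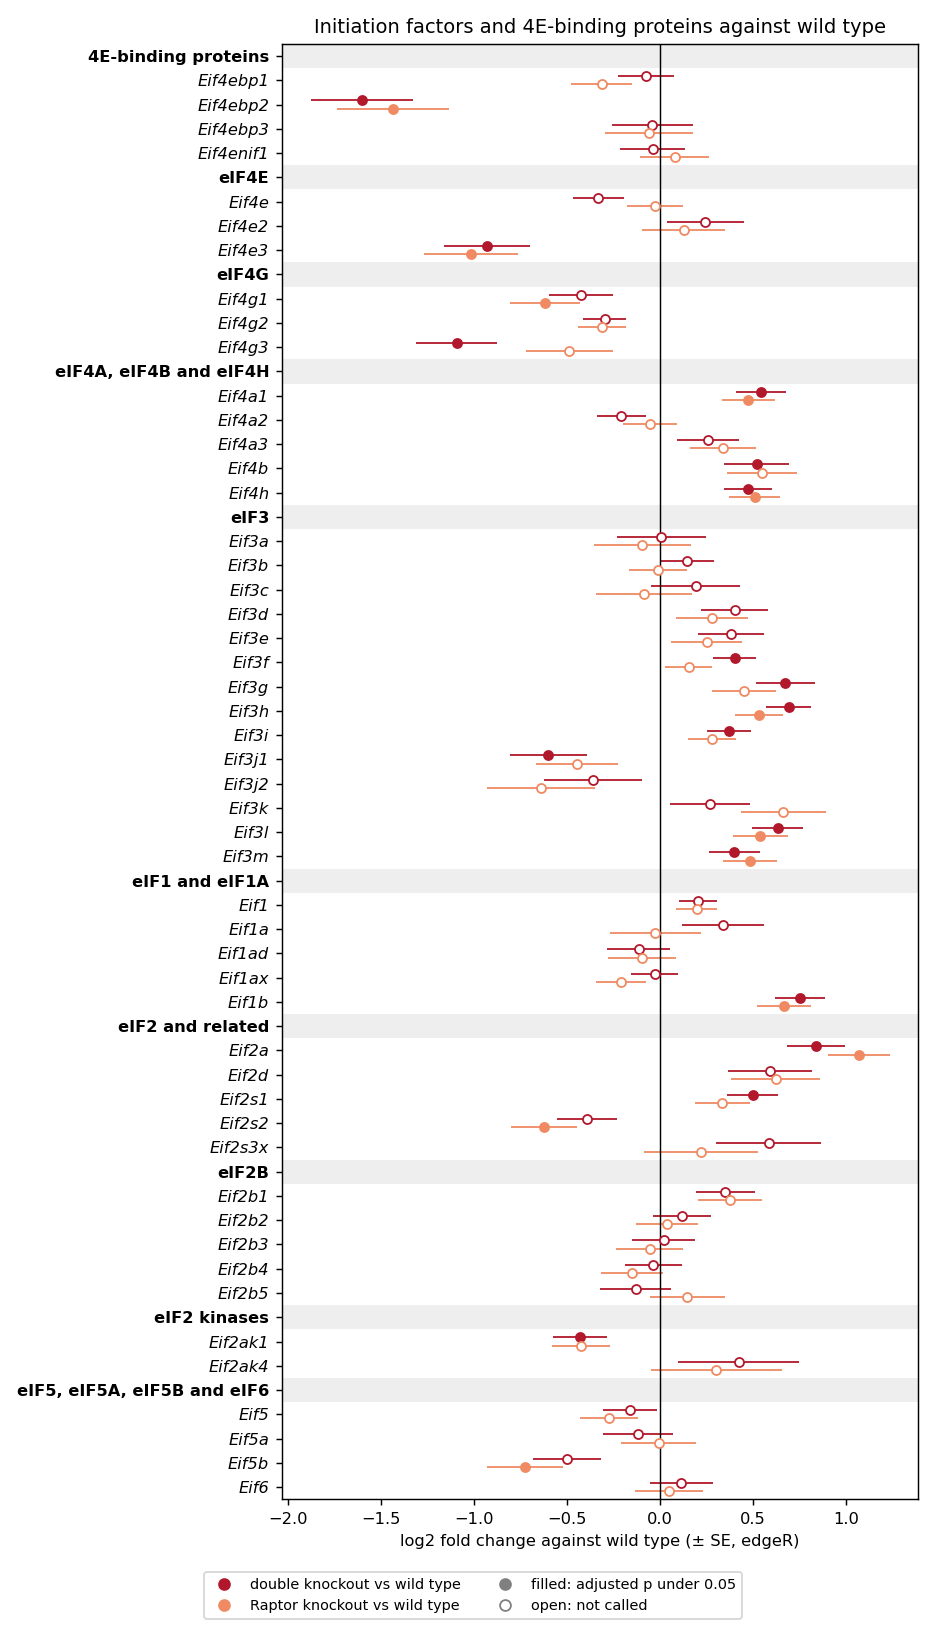
Log2 fold change against wild type (± SE, edgeR) of the tested members, grouped by factor complex, for double-knockout (dark red, upper point) and Raptor-knockout muscle (orange, lower point). Filled points passed an adjusted p under 0.05; the 12 higher and 5 lower members of the double knockout include 6 higher eIF3 subunits and a single 4E-binding protein, Eif4ebp2, at -1.60, and Eif2s3y, at or near 0 in every library with Xist, is not drawn.

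Of the 4E-binding proteins, Eif4ebp2 fell in both knockouts and neither Eif4ebp1 nor Eif4ebp3 passed the test in either. Eif4ebp2 (ENSMUSG00000020091, GRCm38 chr10:61428491-61452661, minus strand) encodes 1 of the 3 small repressors of eIF4E. It stood at 81.2, 83.5, 97.5 and 75.8 CPM in double-knockout, at 87.4, 95.8 and 101 CPM in Raptor-knockout and at 210, 181, 174 and 462 CPM in wild-type muscle. Every knockout library lay below every wild-type library, and wild-type replicate 4 stood far above the other wild-type libraries. The log2 fold change was -1.60 (SE 0.28, edgeR adjusted p = 0.000984) in double-knockout and -1.44 (SE 0.30, edgeR adjusted p = 0.0057) in Raptor-knockout muscle, and without wild-type replicate 4 it was -1.15 and -0.99, both still called. Of 24 alternatives, the double-knockout call ended only among the libraries without Xist (-1.93), where 1 double-knockout library is left, and the Raptor-knockout call ended under none of 23.

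Eif4ebp1 (ENSMUSG00000031490, chr8:27260329-27276674), the 4E-binding protein most studied as an mTOR complex 1 substrate, stood at 49.3, 44.2, 36.3 and 46.8 CPM in double-knockout, at 37.4, 29.5 and 45.2 CPM in Raptor-knockout and at 46.3, 47.6, 45.6 and 46.4 CPM in wild-type muscle. Its wild-type libraries were close together, and the Raptor-knockout libraries all lay below them. Its log2 fold change was -0.07 (SE 0.15, edgeR adjusted p = 0.755) in double-knockout and -0.31 (SE 0.17, edgeR adjusted p = 0.206) in Raptor-knockout muscle. Eif4ebp3 averaged 7.88 ± 1.53 CPM in double-knockout, 7.79 ± 1.43 CPM in Raptor-knockout and 8.01 ± 1.29 CPM in wild-type muscle (SD, n = 4, 3 and 4), with log2 fold changes of -0.04 (SE 0.22) and -0.06 (SE 0.23). Eif4ebp3 lies within the predicted gene AC115631.1, which had no count in any library. The direction of Eif4ebp1 in the double knockout and that of Eif4ebp3 in both knockouts turned positive with library totals. The ratio of Eif4ebp1 to Eif4ebp2 counts had a median of 0.568 in double-knockout, 0.428 in Raptor-knockout and 0.241 in wild-type libraries, and no knockout library fell within the wild-type range of 0.101 to 0.263. Eif4enif1, which encodes the eIF4E transporter 4E-T, was at 9.48 to 13.5 CPM in all libraries and did not pass the test. Its whole interval lies within Drg1, on the opposite strand, which stood at 11.8 to 19.5 CPM and was not called. The part of this overlap in the values of Eif4enif1 was not tested.

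**Figure D2:**
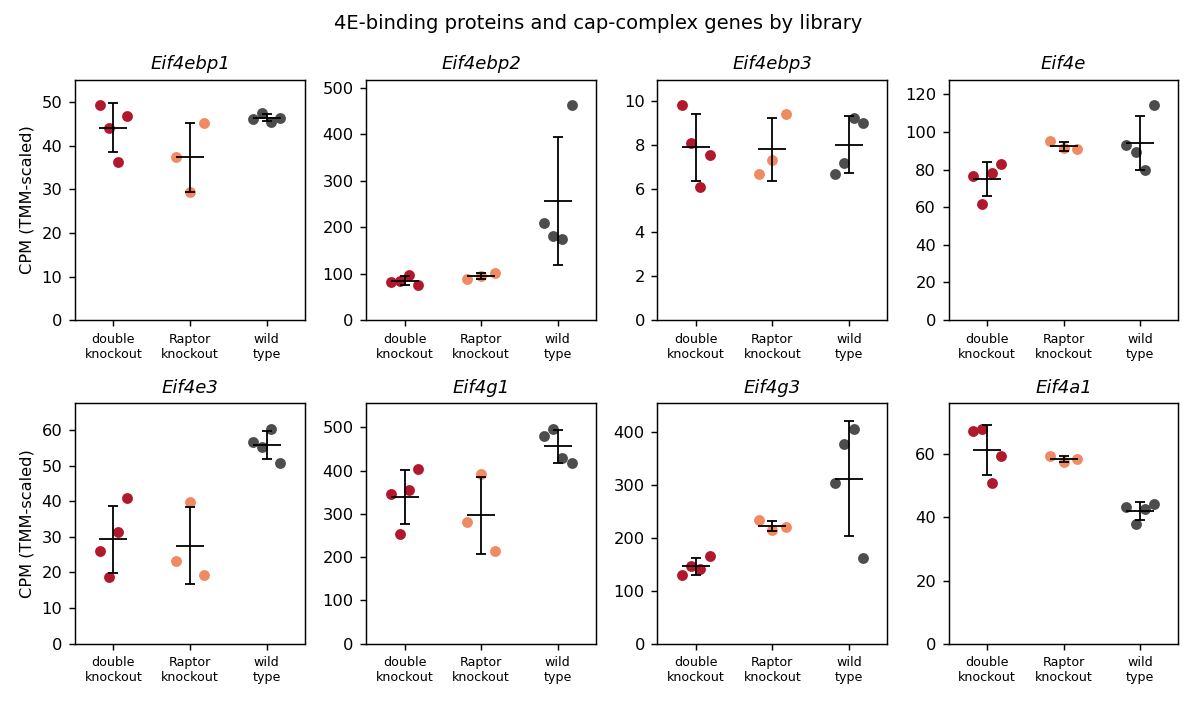
TMM-scaled CPM of the 4E-binding protein genes and of genes of the cap-binding complex, 1 point per library, with the mean and SD of each genotype. Eif4ebp2, Eif4e3, Eif4g1 and Eif4a1 separate both knockouts from wild type. In Eif4ebp2 and Eif4g3 wild-type replicate 4 (462 and 162 CPM) stands apart from the other wild-type libraries.

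Among the cap-binding proteins, Eif4e3 fell in both knockouts, and Eif4e and Eif4e2 did not pass the test. Eif4e3 (ENSMUSG00000093661, chr6:99625135-99666771) encodes an atypical member of the eIF4E family. It stood at 25.9, 18.9, 31.3 and 41.0 CPM in double-knockout, at 23.3, 39.8 and 19.4 CPM in Raptor-knockout and at 56.6, 55.1, 60.2 and 50.7 CPM in wild-type muscle, with no overlap between knockout and wild-type libraries. The log2 fold change was -0.93 (SE 0.23, edgeR adjusted p = 0.00758) in double-knockout and -1.02 (SE 0.25, edgeR adjusted p = 0.0114) in Raptor-knockout muscle. The Raptor-knockout call ended under 3 of 23 alternatives, among them without replicate 1 (-0.91) or replicate 3 (-0.82) of that group. The double-knockout call ended under 2 of 24, among them in the libraries without Xist (-0.42). The predicted gene Gm20696 spans the same interval on the same strand and had at most 1.86 CPM.

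Eif4e, the main cap-binding protein, stood at 76.8, 61.7, 77.9 and 82.8 CPM in double-knockout, at 95.1, 91.2 and 90.7 CPM in Raptor-knockout and at 93.0, 89.4, 79.9 and 114 CPM in wild-type muscle. All double-knockout libraries lay below the Raptor-knockout libraries and 1 of them lay above the lowest wild-type library. The log2 fold change against wild type was -0.33 (SE 0.14, edgeR adjusted p = 0.0906) in double-knockout and -0.03 (SE 0.15, edgeR adjusted p = 0.93) in Raptor-knockout muscle. On the deposited TPM the double-knockout difference passed the test in limma (-0.60 with a pseudocount of 1), and it also passed without wild-type replicate 3 (-0.42). Eif4e2, which encodes the cap-binding repressor 4EHP, had log2 fold changes of 0.24 (SE 0.21) and 0.13 (SE 0.22).

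All 3 eIF4G genes had negative fold changes against wild type in both knockouts, of which 1 passed the test in each. Eif4g3 (ENSMUSG00000028760, chr4:137993022-138208508), a paralog of the main scaffold eIF4G1, stood at 130, 147, 142 and 167 CPM in double-knockout, at 234, 215 and 220 CPM in Raptor-knockout and at 304, 378, 406 and 162 CPM in wild-type muscle. Double-knockout and wild-type libraries overlapped only through wild-type replicate 4. The log2 fold change was -1.09 (SE 0.22, edgeR adjusted p = 0.00181) in double-knockout muscle and -0.49 (SE 0.23, edgeR adjusted p = 0.167) in Raptor-knockout muscle. The double-knockout call ended under 2 of 24 alternatives. Without wild-type replicate 4 the double-knockout value was -1.31, and the gene was then called lower in the Raptor knockout too. Eif4g1 (ENSMUSG00000045983, chr16:20668313-20692884) stood at 346, 254, 356 and 403 CPM in double-knockout, at 282, 393 and 215 CPM in Raptor-knockout and at 481, 496, 430 and 417 CPM in wild-type muscle, so that neither knockout overlapped wild type. Its log2 fold change was -0.42 (SE 0.17, edgeR adjusted p = 0.0792) in double-knockout and -0.62 (SE 0.19, edgeR adjusted p = 0.0307) in Raptor-knockout muscle. The Raptor-knockout call of Eif4g1 ended under 10 of 23 alternatives. Among them were library totals (-0.43), TPM (-0.44 with a pseudocount of 1) and leaving out Raptor-knockout replicate 1 or 3 or wild-type replicate 1 or 2 (-0.44 to -0.59). Eif4g2, which encodes an eIF4G relative without the eIF4E-binding region, had log2 fold changes of -0.30 (SE 0.12, edgeR adjusted p = 0.0725) and -0.31 (SE 0.13, edgeR adjusted p = 0.104).

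Of the 5 genes of eIF4A, eIF4B and eIF4H, 3 rose in the double knockout (Eif4a1, Eif4b and Eif4h) and 2 in the Raptor knockout (Eif4a1 and Eif4h), while Eif4a2 and Eif4a3 did not pass the test in either. Eif4a1 (ENSMUSG00000059796, chr11:69666936-69672423), the helicase of eIF4F, stood at 67.3, 67.9, 50.9 and 59.3 CPM in double-knockout, at 59.5, 57.4 and 58.4 CPM in Raptor-knockout and at 43.3, 37.9, 42.6 and 44.2 CPM in wild-type muscle. No knockout library overlapped wild type, and the log2 fold change was 0.54 (SE 0.13, edgeR adjusted p = 0.00646) in double-knockout and 0.47 (SE 0.14, edgeR adjusted p = 0.0301) in Raptor-knockout muscle. Its paralog Eif4a2 had log2 fold changes of -0.21 (SE 0.13) and -0.05 (SE 0.14), and the ratio of Eif4a1 to Eif4a2 counts was 0.273 to 0.367 in double-knockout, 0.259 to 0.277 in Raptor-knockout and 0.153 to 0.246 in wild-type libraries. The coding sequences of this pair were 77.8% identical. Eif4a3, whose product belongs to the exon junction complex, did not pass the test (0.26 and 0.34).

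Eif4h (ENSMUSG00000040731, chr5:134619721-134639490), which encodes a stimulator of the helicase, stood at 81.2, 72.7, 65.5 and 67.1 CPM in double-knockout, at 76.4, 66.3 and 77.2 CPM in Raptor-knockout and at 51.5, 46.5, 51.5 and 56.4 CPM in wild-type muscle. Its log2 fold change was 0.47 (SE 0.13, edgeR adjusted p = 0.012) in double-knockout and 0.51 (SE 0.14, edgeR adjusted p = 0.017) in Raptor-knockout muscle, with no overlap in either. Eif4b (ENSMUSG00000058655, chr15:102073773-102097173), another stimulator of eIF4A and a target of S6 kinase, stood at 244, 288, 194 and 232 CPM in double-knockout, at 252, 207 and 274 CPM in Raptor-knockout and at 186, 181, 192 and 109 CPM in wild-type muscle. No knockout library of Eif4b overlapped wild type, where replicate 4 was lowest. Eif4b had a log2 fold change of 0.52 (SE 0.17, edgeR adjusted p = 0.0365) in the double knockout and 0.55 (SE 0.19, edgeR adjusted p = 0.0518) in the Raptor knockout. In the double knockout the call of Eif4b ended under 9 of 24 alternatives. Among them were leaving out any 1 of double-knockout replicates 1, 2 and 4, Raptor-knockout replicate 1 and wild-type replicate 2 (0.42 to 0.56). In the Raptor knockout the call of Eif4a1 ended under 8 of 23 alternatives. Among them were leaving out any 1 of the 3 Raptor-knockout libraries or of wild-type replicates 2 and 3 (0.44 to 0.48). The call of Eif4h ended under 4 of 23 alternatives in the Raptor knockout, among them without Raptor-knockout replicate 1 (0.48) or 3 (0.47). In the double knockout it ended under 4 of 24, among them without double-knockout replicate 1 (0.40).

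The eIF3 subunits, which form the scaffold that holds the small ribosomal subunit, its tRNA and eIF4G together, were the largest set, with 14 of the 51 tested members. Of these, 6 rose in the double knockout (Eif3f, Eif3g, Eif3h, Eif3i, Eif3l and Eif3m) and 1 fell (Eif3j1). In the Raptor knockout 3 rose (Eif3h, Eif3l and Eif3m) and none fell in edgeR or by the DESeq2 Wald test. At an unadjusted p under 0.05 in edgeR 1 was lower there, Eif3j2. Called genes were thus 50% of the set in the double knockout, beside 26.7% of all tested genes (13.0% higher and 13.7% lower), and 21.4% in the Raptor knockout, which is near the 18.2% of all tested genes (8.73% higher and 9.43% lower). The median log2 fold change of the 14 genes was 0.38 in double-knockout and 0.26 in Raptor-knockout muscle, beside 0.02 and 0.00 over all tested genes. With library totals 8 rose and none fell in the double knockout, and 6 rose and none fell in the Raptor knockout. Fold changes of the called genes were small, the largest being that of Eif3h, at 1.61 times the wild-type level in the double knockout. Of these subunits eIF3f and eIF3h carry MPN domains, eIF3l and eIF3m carry PCI domains, eIF3g binds RNA and eIF3i is a WD40 propeller. Eif3m lies within Ccdc73 and Eif3j1 ends in Spg11, both on the opposite strand, and these partners reached at most 9.17 and 10.4 CPM. Ccdc73 was called higher in both knockouts (log2 fold changes 1.21 and 0.87), and Spg11 in the double knockout (0.86). The part of these overlaps in the values of Eif3m and Eif3j1 was not tested.

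Eif3h (ENSMUSG00000022312, chr15:51786558-51865523) stood at 164, 158, 144 and 151 CPM in double-knockout, at 133, 133 and 149 CPM in Raptor-knockout and at 89.97, 82.6, 101 and 107 CPM in wild-type muscle. The knockout libraries all lay above the wild-type libraries, with a log2 fold change of 0.69 (SE 0.12, edgeR adjusted p = 0.000499) in double-knockout and 0.53 (SE 0.13, edgeR adjusted p = 0.00878) in Raptor-knockout muscle. Eif3l (ENSMUSG00000033047, chr15:79075179-79094405) stood at 45.2, 52.0, 48.8 and 51.4 CPM in double-knockout, at 47.2, 39.3 and 52.5 CPM in Raptor-knockout and at 30.8, 35.0, 30.9 and 30.9 CPM in wild-type muscle. It did not overlap wild type in either knockout, and its log2 fold change was 0.63 (SE 0.14, edgeR adjusted p = 0.00269) in double-knockout and 0.54 (SE 0.15, edgeR adjusted p = 0.0172) in Raptor-knockout muscle.

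Eif3m (ENSMUSG00000027170, chr2:104999656-105017080) stood at 130, 124, 102 and 130 CPM in double-knockout, at 131, 117 and 139 CPM in Raptor-knockout and at 89.3, 108, 93.9 and 77.8 CPM in wild-type muscle. Double-knockout replicate 3 lay within the wild-type range, and the other knockout libraries lay above it. Against wild type the log2 fold change was 0.40 (SE 0.13, edgeR adjusted p = 0.0372) in double-knockout and 0.48 (SE 0.14, edgeR adjusted p = 0.0282) in Raptor-knockout muscle. Eif3g (ENSMUSG00000070319, chr9:20894349-20898623) stood at 80.0, 90.5, 77.7 and 78.5 CPM in double-knockout, at 78.7, 57.7 and 73.7 CPM in Raptor-knockout and at 42.1, 44.7, 50.7 and 66.9 CPM in wild-type muscle. Eif3g had a log2 fold change of 0.67 (SE 0.16, edgeR adjusted p = 0.00509) in double-knockout muscle, where no library overlapped wild type, and 0.45 (SE 0.17, edgeR adjusted p = 0.0789) in Raptor-knockout muscle, where replicate 2 did. Eif3f (ENSMUSG00000031029, chr7:108934417-108942951) stood at 167, 155, 142 and 176 CPM in double-knockout, at 146, 125 and 132 CPM in Raptor-knockout and at 121, 124, 126 and 113 CPM in wild-type muscle. All double-knockout libraries of Eif3f lay above wild type, and Raptor-knockout replicate 2 lay within its range. Eif3f had a log2 fold change of 0.40 (SE 0.12, edgeR adjusted p = 0.0167) in double-knockout and 0.15 (SE 0.12, edgeR adjusted p = 0.429) in Raptor-knockout muscle. Eif3i (ENSMUSG00000028798, chr4:129591960-129600648) stood at 111, 113, 95.9 and 109 CPM in double-knockout, at 111, 90.96 and 99.8 CPM in Raptor-knockout and at 78.9, 80.4, 83.1 and 89.04 CPM in wild-type muscle. No knockout library of Eif3i overlapped wild type, and its log2 fold change was 0.37 (SE 0.12, edgeR adjusted p = 0.0301) in double-knockout and 0.28 (SE 0.13, edgeR adjusted p = 0.147) in Raptor-knockout muscle.

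**Figure D3:**
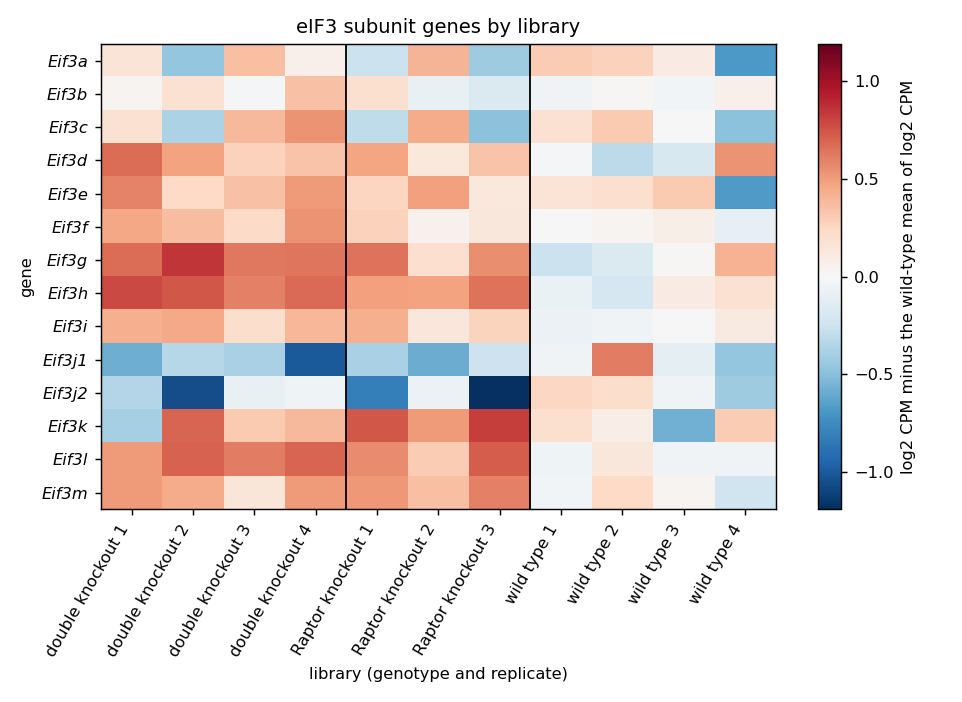
Log2 CPM of the 14 eIF3 subunit genes in each library, minus the wild-type mean of log2 CPM for that gene; columns are libraries by genotype and replicate, and red is above the wild-type mean. Eif3g, Eif3h, Eif3i and Eif3l are red in all 7 knockout libraries, while Eif3a, Eif3c and Eif3j2 are low in double-knockout replicate 2, Raptor-knockout replicates 1 and 3 and wild-type replicate 4.

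In the double knockout the calls of Eif3g, Eif3h and Eif3l ended only in the libraries without Xist. Those of Eif3f, Eif3i and Eif3m also ended within the larger run (0.41, 0.43 and 0.47) and without double-knockout replicate 1 (0.37, 0.34 and 0.36). The call of Eif3i ended without double-knockout replicate 2 or any of wild-type replicates 1 to 3 as well (0.35 to 0.37), and that of Eif3m without double-knockout replicate 2 or 4, Raptor-knockout replicate 1 or wild-type replicate 1 or 3 (0.37 to 0.40). In the Raptor knockout the call of Eif3h ended without its replicate 3 (0.48). There the call of Eif3l ended without replicate 1 (0.53) or 3 (0.44), and that of Eif3m without Raptor-knockout replicate 1 or 3 or wild-type replicate 1 or 3 (0.43 to 0.48). Not every alternative is named here. The double-knockout calls of Eif3f, Eif3i and Eif3m ended under 5, 9 and 11 of 24 alternatives. The Raptor-knockout calls of Eif3h, Eif3l and Eif3m ended under 2, 4 and 7 of 23.

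Eif3j1 (ENSMUSG00000027236, chr2:122028546-122056598), which encodes the loosely attached subunit eIF3j, stood at 49.9, 59.3, 57.2 and 37.5 CPM in double-knockout, at 57.4, 49.8 and 63.1 CPM in Raptor-knockout and at 72.7, 114, 69.4 and 54.6 CPM in wild-type muscle. The groups overlapped, and the log2 fold change was -0.60 (SE 0.21, edgeR adjusted p = 0.0402) in double-knockout and -0.45 (SE 0.22, edgeR adjusted p = 0.181) in Raptor-knockout muscle. The double-knockout call of Eif3j1 ended under 16 of 24 alternatives, among them leaving out any 1 of double-knockout replicates 1, 3 and 4, Raptor-knockout replicate 1 and wild-type replicates 1 and 2 (-0.35 to -0.66). Eif3j1 and its paralog Eif3j2 had coding sequences that were 99.2% identical, and how well the counting separated them is uncertain, since their 3' ends were not compared here. Their values did not run in parallel: in double-knockout replicate 2 Eif3j1 was at its highest of that group (59.3 CPM) and Eif3j2 at its lowest (146 CPM). Their summed level was 205 to 343 CPM in double-knockout, 196 to 339 CPM in Raptor-knockout and 281 to 467 CPM in wild-type muscle. The other eIF3 genes did not pass the test: log2 fold changes in the double knockout were 0.01 for Eif3a, 0.15 for Eif3b, 0.19 for Eif3c, 0.40 for Eif3d, 0.38 for Eif3e, 0.27 for Eif3k and -0.36 for Eif3j2. In the Raptor knockout they were -0.64 for Eif3j2 and between -0.09 and 0.66 for the rest, the last being that of Eif3k.

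Of the factors that scan for the start codon, Eif1b rose in both knockouts. Eif1b (ENSMUSG00000006941, chr9:120492232-120495330) encodes a close relative of eIF1. It stood at 80.0, 90.5, 75.5 and 73.8 CPM in double-knockout, at 75.6, 64.97 and 85.4 CPM in Raptor-knockout and at 47.2, 41.8, 48.2 and 52.3 CPM in wild-type muscle. Knockout and wild-type libraries did not overlap, and the log2 fold change was 0.75 (SE 0.14, edgeR adjusted p = 0.000636) in double-knockout and 0.67 (SE 0.14, edgeR adjusted p = 0.00424) in Raptor-knockout muscle. Eif1, the main gene of this factor, averaged 1142 ± 37.7 CPM in double-knockout, 1135 ± 56.1 CPM in Raptor-knockout and 990.5 ± 63.8 CPM in wild-type muscle (SD, n = 4, 3 and 4), with log2 fold changes of 0.20 (SE 0.10, edgeR adjusted p = 0.157) and 0.20 (SE 0.11, edgeR adjusted p = 0.238). The ratio of Eif1 to Eif1b counts was 13.1 to 15.7 in double-knockout, 13.5 to 16.5 in Raptor-knockout and 19.9 to 23.1 in wild-type libraries, and their coding sequences were 81.1% identical. Eif1a, Eif1ax and Eif1ad did not pass the test, with log2 fold changes between -0.21 and 0.34.

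Among eIF2 and related factors, Eif2a rose in both knockouts. Eif2a (ENSMUSG00000027810, chr3:58525821-58557501) encodes a factor separate from the eIF2 trimer that can deliver initiator tRNA, and it is not the alpha subunit. It stood at 34.8, 41.7, 34.2 and 35.2 CPM in double-knockout, at 39.7, 44.7 and 44.0 CPM in Raptor-knockout and at 21.9, 21.1, 23.2 and 15.3 CPM in wild-type muscle. All knockout libraries lay well above wild type. Its log2 fold change was 0.84 (SE 0.16, edgeR adjusted p = 0.000837) in double-knockout and 1.07 (SE 0.16, edgeR adjusted p = 0.000328) in Raptor-knockout muscle. Like Eif1b, Eif2a kept its Raptor-knockout call under all 23 alternatives and its double-knockout call under all but the libraries without Xist (0.84 for Eif2a and 0.62 for Eif1b).

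The subunits of the eIF2 trimer did not move together. Eif2s1 (ENSMUSG00000021116, chr12:78861819-78887010), the alpha subunit that the eIF2 kinases phosphorylate, stood at 36.0, 44.2, 39.2 and 42.1 CPM in double-knockout, at 35.4, 37.1 and 35.8 CPM in Raptor-knockout and at 29.2, 26.5, 32.7 and 25.7 CPM in wild-type muscle. Neither knockout overlapped wild type, and the log2 fold change was 0.50 (SE 0.14, edgeR adjusted p = 0.0134) in double-knockout and 0.33 (SE 0.15, edgeR adjusted p = 0.132) in Raptor-knockout muscle. The double-knockout call of Eif2s1 ended under 5 of 24 alternatives, among them within the larger run (0.49) and with Xist as a covariate (0.45). Eif2s2 (ENSMUSG00000074656, chr2:154871410-154892935), the beta subunit, stood at 773, 515, 749 and 801 CPM in double-knockout, at 575, 760 and 481 CPM in Raptor-knockout and at 925, 909, 1053 and 841 CPM in wild-type muscle. It lay below wild type in every knockout library, with a log2 fold change of -0.39 (SE 0.16, edgeR adjusted p = 0.0812) in double-knockout and -0.62 (SE 0.18, edgeR adjusted p = 0.021) in Raptor-knockout muscle. The Raptor-knockout call of Eif2s2 ended under 8 of 23 alternatives. Among them were library totals (-0.43), TPM (-0.68 with a pseudocount of 1) and leaving out Raptor-knockout replicate 1 (-0.59) or 3 (-0.48) or wild-type replicate 1 (-0.61). Eif2d, another factor that can deliver tRNA to the ribosome, did not pass the test, with log2 fold changes of 0.59 (SE 0.22, edgeR adjusted p = 0.0614) and 0.62 (SE 0.24, edgeR adjusted p = 0.0832).

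The gamma subunit has a gene on each sex chromosome. Eif2s3x (ENSMUSG00000035150, chrX:94188707-94212862) stood at 35.1, 41.7, 41.3 and 22.7 CPM in double-knockout, at 26.9, 27.1 and 28.2 CPM in Raptor-knockout and at 15.9, 18.2, 40.8 and 17.6 CPM in wild-type muscle. The 4 libraries with Xist were the 4 highest. Eif2s3y (ENSMUSG00000069049, chrY:1010543-1028847) stood at 0, 0, 0.265 and 20.6 CPM in double-knockout, at 6.67, 22.2 and 23.8 CPM in Raptor-knockout and at 16.6, 18.9, 0 and 17.6 CPM in wild-type muscle. It was at or near 0 in those same 4 libraries. Neither gene passed the test between genotypes: the log2 fold change of Eif2s3x was 0.58 (SE 0.28, edgeR adjusted p = 0.145) in double-knockout and 0.22 (SE 0.31, edgeR adjusted p = 0.667) in Raptor-knockout muscle. Without wild-type replicate 3 Eif2s3x was called higher in double-knockout muscle (1.02). With Xist as a covariate it was called higher in Raptor-knockout muscle (0.61), and among libraries without Xist its 22.7 CPM in the double knockout and 26.9 to 28.2 CPM in the Raptor knockout stood beside 15.9 to 18.2 CPM in wild type. Their coding sequences were 86.3% identical.

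**Figure D4:**
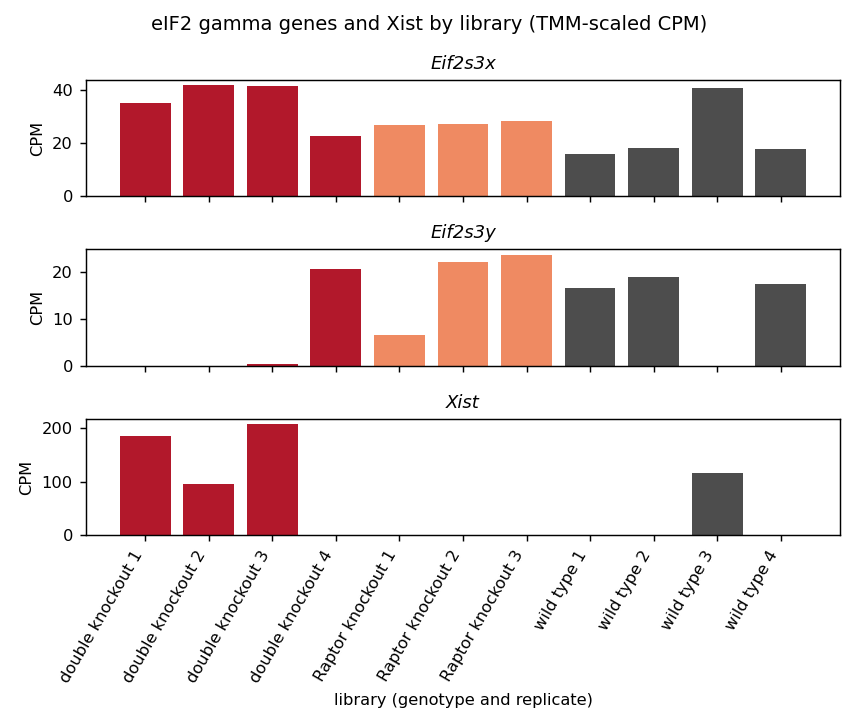
TMM-scaled CPM of Eif2s3x, Eif2s3y and Xist in each library (bars; double knockout dark red, Raptor knockout orange, wild type grey). Eif2s3x is highest and Eif2s3y is at or near 0 in the 4 libraries with Xist, double-knockout replicates 1 to 3 and wild-type replicate 3.

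None of the 5 eIF2B genes, which encode the exchange factor that reloads eIF2 with GTP, was called in edgeR or by the DESeq2 Wald test against wild type. In edgeR 1 of them, Eif2b1, had an unadjusted p under 0.05 in each of these comparisons (log2 fold changes 0.35 and 0.38). Eif2b4, the eIF2B gene with the highest mean level, averaged 38.6 ± 4.77 CPM in double-knockout, 35.6 ± 7.00 CPM in Raptor-knockout and 39.5 ± 4.09 CPM in wild-type muscle (SD, n = 4, 3 and 4). Eif2b2 averaged 33.7 ± 2.55 CPM in double-knockout, 31.9 ± 1.88 CPM in Raptor-knockout and 31.1 ± 6.23 CPM in wild-type muscle, and for both genes the differences between genotypes were within the spread of the libraries. Of the eIF2 kinases, Eif2ak1 (ENSMUSG00000029613, chr5:143817788-143904251), the haem-regulated kinase, stood at 25.0, 22.6, 23.9 and 29.6 CPM in double-knockout, at 23.8, 23.8 and 28.5 CPM in Raptor-knockout and at 35.7, 36.1, 31.3 and 33.4 CPM in wild-type muscle. No knockout library overlapped wild type, and the log2 fold change was -0.43 (SE 0.14, edgeR adjusted p = 0.036) in double-knockout and -0.42 (SE 0.16, edgeR adjusted p = 0.07) in Raptor-knockout muscle. The double-knockout call of Eif2ak1 ended under 15 of 24 alternatives (-0.20 to -0.52), among them leaving out any 1 of double-knockout replicates 1 to 3 and wild-type replicates 1 and 2. The end of Eif2ak1 overlaps Aimp2 on the opposite strand, a gene at 94.5 ± 10.2 CPM in double-knockout, 101 ± 20.9 CPM in Raptor-knockout and 163 ± 78.3 CPM in wild-type muscle, and the strand setting of the counting was not given in the sources used here. Eif2ak4, which encodes GCN2, the kinase activated by uncharged tRNA, was at 2.25 to 6.10 CPM and did not pass the test.

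Of the late-acting factors, Eif5b fell in the Raptor knockout. Eif5b (ENSMUSG00000026083, chr1:37998010-38055579), the GTPase that joins the ribosomal subunits, stood at 287, 198, 319 and 292 CPM in double-knockout, at 204, 314 and 185 CPM in Raptor-knockout and at 414, 448, 386 and 302 CPM in wild-type muscle. Raptor-knockout replicate 2 and double-knockout replicate 3 reached the lowest wild-type library. The log2 fold change was -0.50 (SE 0.18, edgeR adjusted p = 0.0571) in double-knockout and -0.72 (SE 0.20, edgeR adjusted p = 0.0211) in Raptor-knockout muscle. The Raptor-knockout call of Eif5b ended under 9 of 23 alternatives. Among them were library totals (-0.53), TPM (-0.64 with a pseudocount of 1) and leaving out Raptor-knockout replicate 1 or 3 or wild-type replicate 1 or 2 (-0.58 to -0.67). Eif5, which triggers GTP hydrolysis by eIF2, Eif5a, the hypusine-bearing factor that helps elongation, and Eif6, which keeps free large subunits apart from small ones, did not pass the test, with log2 fold changes between -0.27 and 0.11.

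Double-knockout and Raptor-knockout muscle were compared directly as well. No member was called in edgeR, where 0.0286% of all tested genes were called (0.00952% higher and 0.0190% lower), and none was called by the DESeq2 Wald test. Only Eif4g3 had an unadjusted p under 0.05. It stood at 130 to 167 CPM in double-knockout and 215 to 234 CPM in Raptor-knockout muscle, without overlap, and its log2 fold change was -0.61 (SE 0.23, edgeR adjusted p = 0.39). It was the single member called lower with only these groups in the fit, or without wild-type replicate 4. Groups without overlap occurred for 2 of the 51 members, Eif4e and Eif4g3, and for 12.2% of all tested genes. Members called against wild type in a single knockout are not shown to differ between the knockouts.

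Other genes of initiation, from a list of 45 symbols of which 44 were found and 41 tested, held 1 that rose and 9 that fell in the double knockout, and 1 that rose and 7 that fell in the Raptor knockout. These are 24.4% and 19.5% of those tested, close to the 26.7% and 18.2% of all tested genes, so the number called is not a result about the list. The median log2 fold change of the 41 genes was -0.20 in double-knockout and -0.11 in Raptor-knockout muscle, beside 0.02 and 0.00 over all tested genes. Larp1, which binds mRNAs that begin with a pyrimidine tract and is a substrate of mTOR complex 1, averaged 134 ± 6.12 CPM in double-knockout, 144 ± 7.48 CPM in Raptor-knockout and 225 ± 14.1 CPM in wild-type muscle (SD, n = 4, 3 and 4). Its log2 fold change was -0.74 (SE 0.11, edgeR adjusted p = 9.19e-05) in double-knockout and -0.64 (SE 0.12, edgeR adjusted p = 0.00127) in Raptor-knockout muscle. Its relative Larp1b fell by 0.76 and 0.82. Paip2b, an inhibitor of poly(A)-binding protein, fell by 0.93 and 0.79. Paip1 (-0.80), Paip2 (-0.95), Dhx29 (-0.55) and Angel2 (-0.51) fell in the double knockout and did not pass the test in the Raptor knockout. These double-knockout calls ended under 5, 13, 11 and 11 of 24 alternatives. Double-knockout and wild-type libraries overlapped for Paip1 and Paip2. Rps6kb1, which encodes S6 kinase 1, fell by 0.82 and 1.18 (edgeR adjusted p = 0.0486 and 0.0213). Pabpc4, a cytoplasmic poly(A)-binding protein, was the single gene of the list that rose (0.63 and 0.68, edgeR adjusted p = 0.0315 and 0.0422). Raptor-knockout and wild-type libraries overlapped for Pabpc4. Rps6kb1 and Pabpc4 were chosen after their values were seen, and their calls under the alternatives are not given here.

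The share of mt-Rnr2, the mitochondrial 16S ribosomal RNA, varied widely between libraries and moved with part of the members. It was 0.917, 0.525, 1.91 and 1.55% of the library total in double-knockout, 0.447, 2.29 and 0.329% in Raptor-knockout and 3.29, 3.20, 2.39 and 0.419% in wild-type muscle. In a fit with genotype and the log2 share of mt-Rnr2, a choice made after seeing the data, 12 of 51 members changed with that share within genotypes, against 10.8% of all tested genes. Slopes, as log2 change per doubling of the share, were positive for Eif3a (0.32), Eif3j2 (0.31), Eif3c (0.30), Eif5b (0.23), Eif4e3 (0.22), Eif3e (0.20), Eif4g1 (0.17), Eif2s2 (0.15) and Eif5 (0.15). They were negative for Eif5a (-0.24), Eif3d (-0.18) and Eif3g (-0.17). Leaving out any 1 library kept the sign of all 12 and left 8 to 11 of them called.

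All of the members lower in the Raptor knockout other than Eif4ebp2 were among those with positive slopes, and the 3 lowest shares were those of Raptor-knockout replicates 1 and 3 and wild-type replicate 4. With mt-Rnr2 in the fit, the Raptor-knockout log2 fold changes of Eif2s2, Eif4g1, Eif5b and Eif4e3 were -0.44, -0.42, -0.44 and -0.78, and all 4 stayed called. In that fit 13 members were higher and 8 lower in the double knockout, and 8 higher and 7 lower in the Raptor knockout. Eif4ebp2 was then at -1.66 and -1.63. The double-knockout calls of Eif3j1 (-0.55) and Eif4b (0.54) and the Raptor-knockout call of Eif4a1 (0.40) ended.

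The library kit primes on poly(A), so the coding sequences of the members were searched for the 20-base window with the most adenines (GENCODE M21, GRCm38). The windows below belong to 8 of the 12 members with called slopes on the mt-Rnr2 share. They were chosen after their values were seen, to show windows rich and poor in adenine, the member with the steepest slope (Eif3a) and a member with few adenines and a positive slope (Eif4e3). They are given 5′ to 3′ on the coding strand, with adenines in capitals. Eif5b (chr1:38022201-38022220, plus strand, exon 6), Eif2s2 (chr2:154884358-154884377, minus strand, exon 4), Eif5 (chr12:111541732-111541751, plus strand, exon 7), Eif3c (chr7:126563713-126563732, minus strand, exon 5), Eif3a (chr19:60772975-60772994, minus strand, exon 12) and Eif4e3 (chr6:99651736-99651755, minus strand, exon 2) had positive slopes. Eif3g (chr9:20897932-20897951, minus strand, exon 4) and Eif5a (chr11:69917975-69917994, minus strand, exon 4) had negative ones.
Eif5b: AAAAAgAAAAAgAAAgAAAA
Eif2s2: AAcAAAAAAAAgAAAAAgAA
Eif5: AAAgAAAAggAAAAgAAAAA
Eif3c: AAAgAAgAAgAtgAAtAAAA
Eif3a: AAAAAttcAAgAAAAgAgcA
Eif4e3: gAAtctgAAgAAAAtctAcA
Eif3g: cAtcAAtgggAAcAtAAAgA
Eif5a: ActgggAAgAAAtAtgAAgA

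These windows held 17 adenines in Eif5b and Eif2s2, 16 in Eif5, 14 in Eif3c and 13 in Eif3a, and 10 in Eif4e3, Eif3g and Eif5a. Of the 13 members with 14 or more adenines, 11 had a positive slope and 6 of those were called. Of the 13 members with 13 adenines, 8 had a positive slope and 2 of those were called. Of the 17 with 11 or 12, 4 had a positive slope and none of those was called. The other 13 of these had a negative slope and 1 was called, that of Eif3d, with 12. Of the 8 members with 10 or fewer, 7 had a negative slope and 2 of those were called, while Eif4e3, with 10, had a called positive slope. Across the 51 members the number of adenines and the slope had a Spearman rho of 0.63, and across 9875 tested genes with a coding sequence rho was 0.41. These are descriptions across genes that share the same 11 libraries and are not independent. A longer coding sequence also offers more windows, and coding length was not taken into account. Where the reads of a gene began was not examined here, and the part of such windows in the members' values was not tested.

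**Figure D5:**
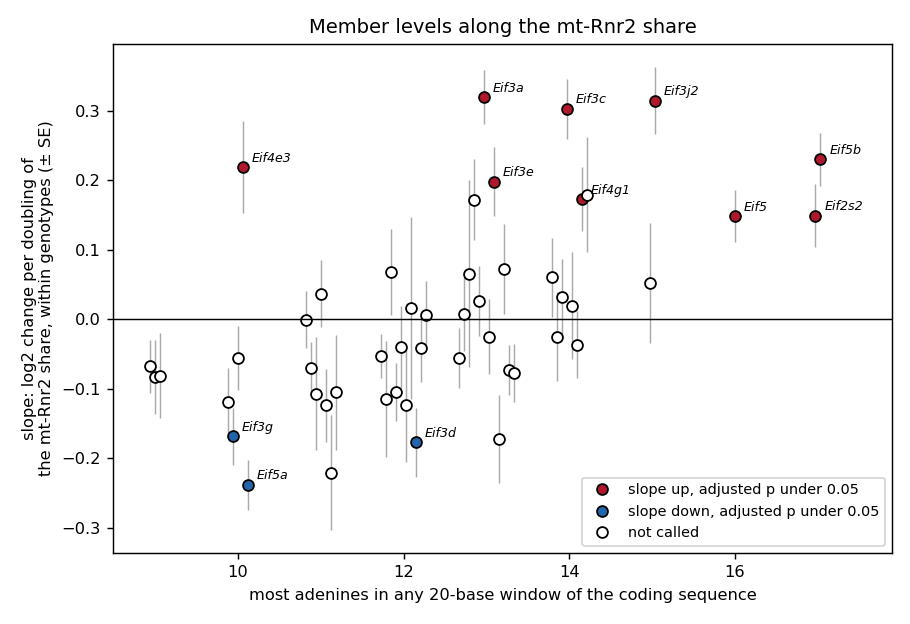
Slope of each tested member on the mt-Rnr2 share (log2 change per doubling, ± SE, within genotypes) against the most adenines in any 20-base window of its coding sequence; points at the same count are spread sideways, and Eif2s3y is not drawn. Called slopes are positive (red) for Eif5b and Eif2s2 with 17 adenines, among others. They are negative (blue) for Eif3d with 12 and for Eif3g and Eif5a with 10, and Eif4e3, also with 10, has a positive one.

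Transcripts with a cytosine at the start followed by an unbroken run of pyrimidines, the 5' terminal oligopyrimidine motif, are translated under control of mTOR complex 1. RefSeq transcription starts (GRCm38.p6) were found for 43 of the 55 members, with 56 starts. A start at C followed by 4 bases that are each C or T was found for 2 of the 43, Eif3f and Eif2s3x, and for 813 of 27025 genes, which is 3.01%. Both are shown with 20 bases before the start and 10 from it on, the pyrimidine run from the start in capitals, beside Eif3l and Eif3m, which rose in both knockouts. The positions are chr7:108934395-108934424 (plus strand) for Eif3f, chrX:94212642-94212671 (minus strand) for Eif2s3x, chr15:79075203-79075232 (plus strand) for Eif3l and chr2:105017018-105017047 (minus strand) for Eif3m.
Eif3f: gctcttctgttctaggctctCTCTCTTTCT
Eif2s3x: ggcggctgccgagcattttcCTTTTCTCTC
Eif3l: agcaggcgcggagttcttctTCCgctctct
Eif3m: ctctcttttccggtcggcgtgtttctggat

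Counted from the annotated start, the run in Eif3l begins with T and ends after 3 bases. In Eif3l, as in Eif3f and Eif2s3x, further pyrimidines lie directly before that start, so the unbroken tract is longer. No run begins at the annotated start of Eif3m, where pyrimidines lie further upstream. Annotated starts can differ from those used in muscle, and a match in this window is a description of these letters alone.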

How the data were processed

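The authors deposited expected counts per gene and TPM from RSEM 1.3.3 after fastp 0.20.0 and STAR 2.7.0, per the submitters' processing notes; annotation release, filters and strandedness: not given in the sources used here. Columns were matched to samples by name, and 8 further columns were not used, 6 of which matched no sample. Of the expected counts, 2.25% were fractional, and all were rounded. Genes were filtered with filterByExpr, scaled by TMM and tested in edgeR 4.0.16 (R 4.3.3, robust quasi-likelihood, all 3 genotypes in 1 fit, 8 residual degrees of freedom) with Benjamini-Hochberg adjustment over 10505 genes and a threshold of 0.05. The common biological coefficient of variation was 20.6%. Alternatives used DESeq2 1.42.0, limma 3.58.1 on the deposited TPM, other scalings, filters and covariates, and left-out libraries. The fits were tested on simulated data. No pair of libraries agreed within sampling noise. The labels do not say whether mice shared a litter. Members called in any comparison were named, as were Eif4ebp1, Eif4ebp2, Eif4ebp3, Eif4e, Eif2s3x and Eif2s3y, the 2 most abundant genes of a complex without a call, and up to 8 called genes of the other initiation genes by adjusted p in the double knockout, of which 1 is not reported here; other members are given as values to complete their complex. The members and lists were chosen with earlier results of these data known. Coding identity was taken from alignments of GENCODE M21 coding sequences, since protein sequences were not used here.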

Additional observations from a re-analysis of the deposited data

Results flagged for a closer look

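In 7 of 54 groups of 4 libraries, 1 library stood farther from the other 3 than Dixon's criterion allows. Chance flags about 1 group in 20. The groups were the double-knockout and the wild-type libraries of the members named by the rule above, and not of all members. Eif2a stood at 41.7 CPM in double-knockout replicate 2, against 34.2 to 35.2 CPM in the other double-knockout libraries. Eif3l stood at 35.0 CPM in wild-type replicate 2, against 30.8 to 30.9 CPM in the other wild-type libraries. In wild-type replicate 4, Eif4ebp2 stood at 462 CPM, against 174 to 210 CPM in the other wild-type libraries, and Eif4b at 109 CPM, against 181 to 192 CPM. That library also had the lowest mt-Rnr2 share of the wild-type libraries.

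The other flags concern the gamma subunit genes and fall on the libraries that differ from their group in Xist. Eif2s3y stood at 20.6 CPM in double-knockout replicate 4, against 0 to 0.265 CPM in the other double-knockout libraries. In wild-type replicate 3 Eif2s3y stood at 0 CPM, against 16.6 to 18.9 CPM in the other wild-type libraries, and Eif2s3x at 40.8 CPM, against 15.9 to 18.2 CPM.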

How the results depend on the processing

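No paired analysis was possible because the labels give no shared replicate numbers. DESeq2 size factors and the DESeq2 Wald test kept every member call against wild type. In the double knockout, 12 members higher became 7 with no filter on low counts or with Xist as a covariate, 0 in libraries without Xist and 7 to 15 with 1 library left out, lowest without double-knockout replicate 1. There 5 lower became 3 with library totals, within the larger run or with Xist as a covariate, 2 on log2(TPM + 1) with no filter, 8 with mt-Rnr2 as a covariate, 0 in libraries without Xist and 3 to 7 with 1 library left out, lowest without double-knockout replicate 1 or 3 or wild-type replicate 1. In the Raptor knockout, 7 higher became 16 with library totals, 13 on log2(TPM + 1) or log2(TPM + 0.1), 2 in libraries without Xist and 2 to 10 with 1 library left out (2 without Raptor-knockout replicate 3, 3 without replicate 1). There 5 lower became 2 with library totals, on TPM or in libraries without Xist, 1 on log2(TPM + 1) with no filter, and 1 to 6 with 1 library left out (1 without Raptor-knockout replicate 1 or 3, 2 without wild-type replicate 1, 3 without wild-type replicate 2). Between the knockouts, 0 lower became 1 with only these groups in the fit, and 0 to 1 with 1 library left out. The cause of these changes was not tested; fits in libraries without Xist hold fewer samples.

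Every reversed direction belonged to a difference that was not called. Against wild type in the double knockout, Eif4ebp1 was 0.16 with library totals, 0.093 on log2(TPM + 0.1), 0.092 on log2(TPM + 1) with or without the filter, 0.0072 within the larger run, 0.0088 with run as a covariate, and -0.14 to 0.011 with 1 library left out. Eif4ebp3 was 0.19 with library totals, 0.13 on log2(TPM + 0.1), 0.12 on log2(TPM + 1) with or without the filter, 0.14 within the larger run or with run as a covariate, and -0.17 to 0.066 with 1 library left out. Eif2s3y was 0.20 in libraries without Xist and 0.26 with Xist as a covariate. In the Raptor knockout, Eif4ebp3 was 0.14 with library totals, 0.066 on log2(TPM + 0.1), 0.061 on log2(TPM + 1) with or without the filter, and -0.21 to 0.043 with 1 library left out. Eif4e was 0.18 with library totals and -0.14 to 0.080 with 1 library left out. Eif2s3y was -0.047 in libraries without Xist, -0.0092 with Xist as a covariate, and -0.054 to 0.84 with 1 library left out. Between the knockouts, in libraries without Xist and with Xist as a covariate, Eif2s3x was -0.26 and -0.45, Eif2s3y 0.25 and 0.26, and Eif4ebp3 -0.029 and -0.12. Eif4ebp3 was -0.092 to 0.17 there with 1 library left out, and Eif4ebp2 was 0.047 with Xist as a covariate.

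Depth limits members at a few CPM, such as Eif2ak4 and Eif4ebp3. P-values weigh differences between genotypes against the spread of these 11 libraries within genotypes.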
